A study of Mus musculus with 2 samples.

Results

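The Zfp genes are the mouse genes named zinc finger protein plus a number, and most of them encode proteins with C2H2 fingers that bind DNA. Members were all autosomal protein-coding genes of GENCODE M21 (mouse genome GRCm38) whose symbol is Zfp followed by digits, with Zfp423 left out. This gave 357 of 20721 autosomal protein-coding genes. By a rule on position, 215 of them lay in 32 clusters, in which some 500 kb stretch held 3 or more Zfp start sites, and the other 142 were called single. CG methylation came from whole-genome bisulfite sequencing (WGBS) of primary osteoblasts, the bone-forming cells, here taken from the calvarial bone of 3-day-old C57BL/6 mice and cultured for 3 days. The WT library came from mice labelled wild type, and whether these carried floxed alleles is not given in the labels. The TCKO library came from mice with Prx1-Cre that are fl/fl at Tet1, fl/fl at Tet2 and fl/fl at Tet3, in which the Prx1-Cre transgene, active in limb and skull mesenchyme, deletes all 3 Tet genes. Both groups had 1 library, so no difference had a replicate check, and each Fisher exact test below compared 2 libraries, not 2 genotypes. The groups share age, strain and culture, and the number of animals behind each library is not given.

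TET enzymes oxidise 5mC, which leads to its loss, and bisulfite reads 5mC and its first product 5hmC alike as methylated. Most C2H2 genes hold their fingers in a long last exon, where the same linker and finger letters recur many times. Many also encode a KRAB domain, which recruits the corepressor TRIM28 (KAP1) and the H3K9 methyltransferase SETDB1, and such proteins silence retroelements and protect imprints. KRAB genes multiplied by local duplication, and so they stand in clusters.

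Of the deposited calls (reads of a CG cytosine, each methylated or not), the WT library held 261127589 and the TCKO library 223645082, or 6.15 and 5.26 per autosomal CG cytosine. The autosomes as a whole stood at 70.4% in WT and 76.6% in TCKO. Within Tet1, Tet2 and Tet3 the stretch most depleted of reads had 755, 122 and 133 calls in WT and 70, 13 and 9 in TCKO. Each stretch was picked for this depletion, so these counts are no independent check of the genotype labels. The TSS windows of 6 osteoblast genes ran from 0.613% (Col1a1) to 71.9% (Bglap) in WT, those of the leukocyte genes Ptprc, Cd68 and Lyz2 stood at 78.4%, 64.2% and 66.7%, and those of the cartilage genes Acan and Col2a1 at 6.49% and 9.12%. Methylation at these windows therefore named no cell type. Of the 6, Runx2 (13.8% to 30.7%) and Ibsp (45.6% to 84.6%) were called higher in TCKO by the rule given below. The part that other cells have in the values below was not tested.

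A set of 6 stretches is printed because it carries the main contrasts of the family, each with CG in capitals and all in GRCm38, read 5′ to 3′ along the gene's own strand. Those of Zfp961, Zfp595, Zfp146 and Zfp553 run from the first cysteine codon of a finger, as matched by a pattern, to the last histidine codon of the next. In Zfp595 the pattern took an extra cysteine just before the finger's own pair. That of Zfp36 is coding sequence of the last exon, and that of Zfp958 lies upstream of the start site. Within each gene the stretch was the one with most calls in the less covered library, whatever its level. Zfp961 (chr8:71968662-71968808, plus strand) and Zfp36 (chr7:28377851-28378000, minus strand) belong to last exons that were higher in TCKO, and Zfp595 (chr13:67317478-67317630, minus strand) to the last exon that was lower. Zfp146 (chr7:30162334-30162480, minus strand) and Zfp553 (chr7:127236184-127236330, plus strand) have the widest gap between start site and last exon. Zfp958 (chr8:4612467-4612666, plus strand) has the largest rise within 1 kb of a start site.
Zfp961 fingers 8 and 9: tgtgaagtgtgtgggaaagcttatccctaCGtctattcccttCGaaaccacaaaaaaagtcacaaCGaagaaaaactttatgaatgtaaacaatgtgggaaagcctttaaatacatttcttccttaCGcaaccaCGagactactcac
Zfp595 fingers 4 and 5: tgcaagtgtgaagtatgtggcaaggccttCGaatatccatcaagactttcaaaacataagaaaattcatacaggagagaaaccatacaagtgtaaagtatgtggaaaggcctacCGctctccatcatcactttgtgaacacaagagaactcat
Zfp146 fingers 2 and 3: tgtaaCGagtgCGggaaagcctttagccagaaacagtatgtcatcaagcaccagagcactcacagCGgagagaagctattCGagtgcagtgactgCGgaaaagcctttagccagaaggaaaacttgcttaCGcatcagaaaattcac
Zfp553 fingers 7 and 8: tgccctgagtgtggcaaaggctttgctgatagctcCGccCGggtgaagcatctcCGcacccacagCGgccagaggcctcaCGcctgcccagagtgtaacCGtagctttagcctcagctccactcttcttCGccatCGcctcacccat
Zfp36 coding stretch: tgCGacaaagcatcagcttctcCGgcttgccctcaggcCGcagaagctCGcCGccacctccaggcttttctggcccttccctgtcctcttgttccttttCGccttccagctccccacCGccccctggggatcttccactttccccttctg
Zfp958 upstream stretch: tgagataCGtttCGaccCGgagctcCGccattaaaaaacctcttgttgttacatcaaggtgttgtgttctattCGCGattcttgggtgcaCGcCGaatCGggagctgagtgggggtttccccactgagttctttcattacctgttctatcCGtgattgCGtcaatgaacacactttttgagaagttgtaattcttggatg
The Zfp961 stretch has 5 CpGs, at which 16 of 106 calls were methylated in WT (15.1%, 95% Wilson interval 9.51% to 23.1%) and 42 of 60 in TCKO (70%, 57.5% to 80.1%). All 5 of them rose, the first from 18.2% to 75% and the second from 26.1% to 84.6%. The Zfp36 stretch has 7 CpGs and went from 13 of 53 calls (24.5%) to 35 of 63 (55.6%). The 11 CpGs of the Zfp958 stretch, 501 to 700 bp before the start site, went from 37.6% of calls to 78.9%. All 3 of these differences had a 95% Newcombe interval above 0. The 3 genes were chosen for rises in the regions that hold these stretches, so the intervals are no separate support. The fingers of Zfp146 and Zfp553 hold 6 and 8 CpGs and were nearly full in both libraries, at 57 of 65 and 41 of 44 calls in WT and 52 of 54 and 35 of 37 in TCKO. The Zfp595 fingers hold 2 CpGs, with 27 of 30 calls methylated in WT and 24 of 29 in TCKO, a difference of -7.24 points whose interval (-25.7 to 11.1) spans 0.

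A Zfp gene had a low start and a highly methylated end in both libraries. Within 1 kb of the TSS (the 5′ end of the gene), the 354 members with at least 30 calls in each library had a median level of 21.6% in WT and 26.5% in TCKO. Over the gene body, with at least 100 calls, all 357 were measured and had medians of 74.8% and 78.6%. In the last exon, again with at least 30 calls, 343 members had medians of 85.5% and 88.1%, against 76.9% in WT over all 15638 genes measured there. The 3 members missing at the TSS were Zfp967, Zfp968 and Zfp969, and 5 of the 14 missing at the last exon have a single exon.

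The last exon stood above the TSS window in 325 of the 340 members with both values, by a median of 62.2 points in WT and 60.8 in TCKO. Zfp553 had the widest gap, from 0.538% at the TSS to 92.1% in the last exon in WT. It was followed by Zfp146 at 3.07% and 94.3%. In both genes the gap thus spanned nearly the whole scale, and the fingers printed above lie at its upper end. The order was turned in a few genes, among them Zfp474, Zfp558 and Zfp36, whose TSS windows lay 35.6, 21.6 and 17.2 points above their last exons in WT. These 3 were also among the 5 last exons with the largest rise in TCKO. Zfp988 (65.7% at the TSS and 50.8% in the last exon in WT) and Zfp990 (61.1% and 48.55%) were turned too. Their last exons differed by -5.59 and -3.70 points. The WT level of the last exon enters both the order and the rise, so these are not independent.

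**Figure D1:**
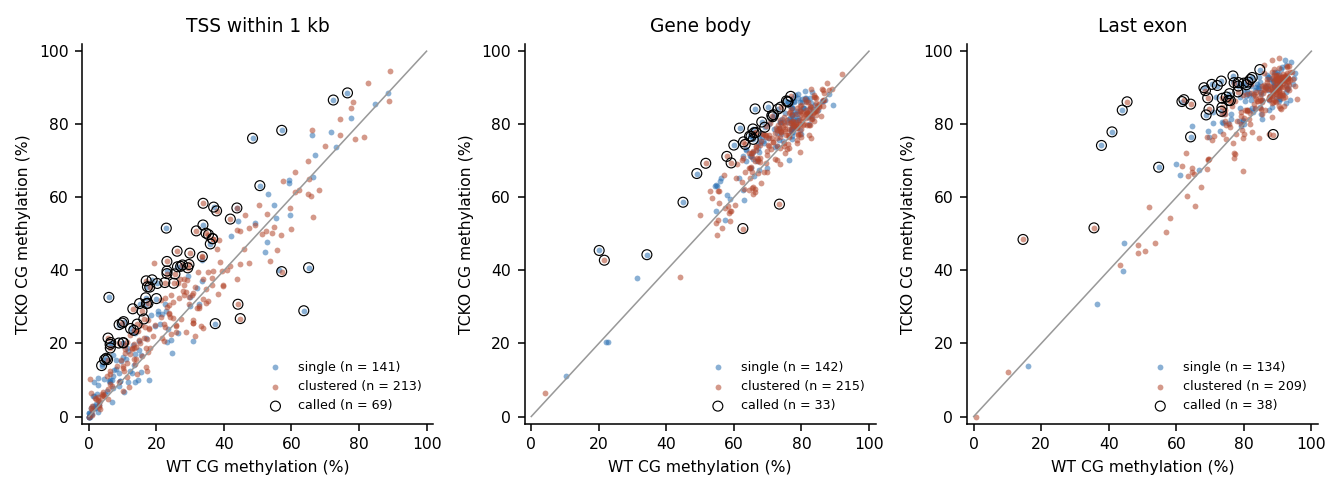
CG methylation (%) of each Zfp gene in the WT library (x axis) against the TCKO library (y axis) for the TSS window, the gene body and the last exon; each point is 1 gene, coloured by clustered or single, and rings mark called genes. TSS windows spread over the whole scale around a WT median of 21.6%, while most last exons sit near the upper right corner, at a WT median of 85.5%.

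The Zfp genes were a little higher in TCKO at all 3 regions, by a median of 3.75 points at the TSS, 3.43 over the body and 2.23 in the last exon. Over all genes the medians were 3.03, 5.77 and 4.88 points, so the members' TSS windows changed about as those of other genes, and their bodies and last exons less. A gene was called where the 2-sided Fisher exact test, adjusted by Benjamini-Hochberg over all genes measured, gave an adjusted p under 0.05 and the levels differed by at least 10 points. At the TSS, 63 members were called higher (17.8%) against 16.8% of all genes, and 6 were called lower against 1.66%. Over the body, 31 were called higher (8.68%) against 15.2%, and 2 lower against 0.636%. In the last exon, 37 were called higher (10.8%) against 16.3%, and 1 lower against 0.582%. In all, 106 members (29.7%) were higher in at least 1 region, against 33.7% of the other genes.

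Calls at the TSS and over the body depended more on which CpGs were counted than those in the last exon. Levels were computed again over CpGs read in both libraries, with the same weight for a CpG in both, an alternative chosen after the data were seen. At the TSS 34 of the 63 higher members and 1 of the 6 lower ones still differed by at least 10 points, together 9.89% of those tested against 11.1% of all genes. Over the body the counts were 16 of 31 and 0 of 2, or 4.48% against 10.2%. In the last exon they were 36 of 37 and 1 of 1, or 10.8% against 15.3%. The others fell under 10 points or had too few calls on shared CpGs. The median differences on these CpGs were 3.21, 3.55 and 2.11 points for the members and 3.24, 5.68 and 4.98 for all genes, so bodies and last exons of the family changed less than those of all genes with either pooling. Among called members, 57 of 63 TSS windows, 30 of 31 bodies and 36 of 37 last exons were higher on both strands. Calls pooled the strands, so this was partly built in. Among members not selected by call, the differences on the 2 strands correlated with rho of 0.214 at the TSS, 0.455 over the body and 0.421 in the last exon. The median absolute gap between strands was 7.68, 3.09 and 4.02 points.

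**Figure D2:**
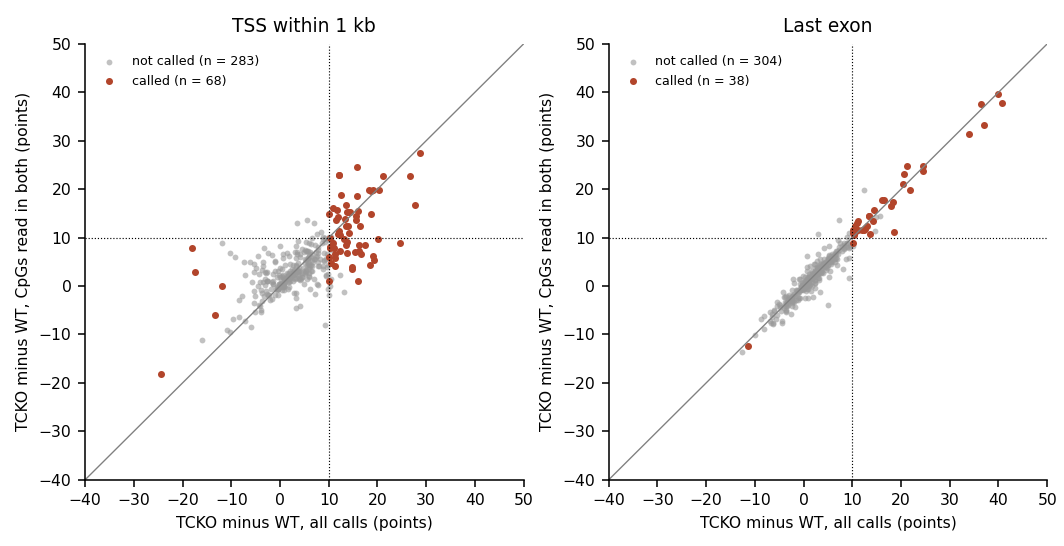
TCKO minus WT (percentage points) for each Zfp gene from all calls (x axis) against the same from CpGs read in both libraries with equal weights (y axis), at the TSS window and the last exon; called genes are coloured, the line is the diagonal dotted lines mark 10 points and genes with too few shared calls are left out. Last exons lie along the diagonal and 36 of 37 called higher stay at 10 points or more, while 29 of the 63 TSS windows called higher fall under that line.

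At start sites the largest rise was that of Zfp958, from 22.9% of 205 calls in WT to 51.6% of 128 in TCKO, or 28.6 points (95% Newcombe interval 18 to 38.6, Fisher exact test, adjusted p = 2.96e-06). Zfp641 followed, from 48.5% of 458 calls to 76.2% of 344, and Zfp319, from 5.93% of 405 calls to 32.6% of 184. On CpGs read in both libraries these 3 rose by 27.5, 16.7 and 22.7 points. Zfp995, from 33.8% to 58.4%, rose by 8.90 points on those CpGs and so lost its call. Zfp217, whose human homologue is an oncogene of breast cancer, went from 57.1% of 492 calls to 78.3% of 503 (21.2 points, interval 15.5 to 26.8). Around the start of its chosen principal transcript Zfp217 differed by -8.57 points. Within 500 bp of the TSS, Zfp958 and Zfp995 differed by 6.98 and 2.36 points and were not called. Zfp641 and Zfp217 kept their calls there, at 35.1 and 23.4 points. Among start sites under 10% in WT, and named after their values were seen, Zfp1, Zfp13 and Zfp292 stood at 5.16%, 5.68% and 6.29% and went to 15.9%, 21.5% and 19.8% in TCKO. Zfp617 and Zfp882 share a window, so their calls (36.6% to 48.7%) are the same reads.

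Of the 6 lower start sites, only Zfp352 held on CpGs read in both libraries, where it differed by -18.2 points. Zfp352, an early embryonic gene, stood at 65.1% of 166 calls in WT and 40.7% of 162 in TCKO (-24.3 points, interval -34.3 to -13.6, Fisher exact test, adjusted p = 0.000183). Zfp973, at 63.6% of 33 calls and 28.9% of 38, differed by -2.73 points on the shared CpGs, where it had too few calls to be counted, and Zfp551 by -5.88. For Zfp414 and Zfp953 the sign turned, from -18 and -17.4 points on all calls to 7.87 and 2.92 on shared CpGs. Zfp64 went to 0.0179 points. A lower start site was thus rare among the members and mostly lost with the choice of CpGs.

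Over gene bodies the largest rise was that of Zfp296, from 20.1% of 189 calls to 45.5% of 121, with too few calls on shared CpGs to be counted there. Zfp36, which encodes tristetraprolin, a CCCH protein that binds AU-rich elements and speeds the decay of cytokine mRNAs, went from 21.6% of 513 calls to 42.8% of 575 (21.1 points, Fisher exact test, adjusted p = 2.717e-13). Zfp474 (66.3% to 84.2%), Zfp114 (51.7% to 69.3%) and Zfp513 (49.0% to 66.5%) followed. Zfp747 (73.5% to 58.1%) and Zfp414 were the bodies called lower, and on shared CpGs they differed by -3.49 and 7.91 points. No body of the family thus held a fall of 10 points.

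In last exons the rises were larger. Zfp961, which encodes a KRAB-like core and 11 fingers, went from 45.4% of 405 calls in WT to 86.1% of 332 in TCKO, or 40.7 points (interval 34.3 to 46.5, Fisher exact test, adjusted p = 9.83e-29), and its fingers 8 and 9 are those printed above. Zfp438 went from 44.0% of 75 calls to 83.9% of 93, Zfp474 from 41.0% to 77.9%, and Zfp558 from 37.8% of 37 calls to 74.2% of 31. Zfp36 rose from 14.6% of 178 calls to 48.5% of 227 (33.9 points, interval 25.1 to 41.7, Fisher exact test, adjusted p = 2.142e-11). These 5 were far below the family's median in WT, which rises of this size require, and the first 4 stood at 74.2% or more in TCKO. Zfp595 was the 1 last exon called lower, from 88.7% of 221 calls to 77.2% of 228 (-11.5 points, interval -18.4 to -4.55, Fisher exact test, adjusted p = 0.009965), and it differed by -12.5 points on shared CpGs.

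Higher in all 3 regions were Zfp36, Zfp114, Zfp366, Zfp474 and Zfp532, of which Zfp366 and Zfp532 are named for this count alone. These were 5 of the 340 members tested in all 3 regions, beside 219 of 15118 other genes. Zfp36 and Zfp114 are clustered and the others single. Zfp366, known as DC-SCRIPT in dendritic cells, went from 50.6% to 63.2% at the TSS, from 71.7% to 82.6% over the body and from 75.7% to 88.4% in the last exon. In Zfp532 the same regions went from 33.8% to 52.4%, from 75.9% to 86.1% and from 80% to 91.3%. On CpGs read in both libraries the body of Zfp532 differed by 9.94 points, and so lost its call.

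Among members with a known role, 23 of a list of 24 were matched. At the TSS 3 were called higher (Zfp36, Zfp217 and Zfp110) and 1 lower (Zfp64), over the body 4 higher and 0 lower, and in the last exon 5 higher and 0 lower of 22, where 16.8%, 15.2% and 16.3% of all genes were called higher. Zfp521, a regulator of osteoblast and progenitor differentiation that acts on RUNX2, went from 70.2% to 84.8% over its body and from 84.7% to 95% in its last exon. Zfp516 and Zfp462 rose over their bodies by 14.3 and 10.1 points, and on shared CpGs Zfp462 differed by 9.81 and lost its call. Zfp143, an activator that binds many promoters, rose in its last exon from 70.5% to 90.9%, and Zfp131 and Zfp536 by 10.3 and 10.2 points, of which Zfp536 lost its call on shared CpGs (8.90 points). Zfp467, linked to the choice between osteoblast and adipocyte fates, had 0.926% at its TSS in WT and 2.99% in TCKO, with no call.

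Of the same list, Zfp57, Zfp445, Zfp42, Zfp809 and Zfp568 were called in none of the 3 regions. Zfp57, which keeps imprints methylated, stood at 84.8% and 85.6% at its TSS, and Zfp445, which acts in the same upkeep, at 92.6% and 90.7% in its last exon. Zfp42, the pluripotency gene Rex1, had 77.7% and 81.8% at its TSS. Zfp809, which silences retroviruses in embryonic cells, had 90.3% and 98.2% in its last exon, and Zfp568, which represses a placental Igf2 transcript, 86.1% and 94.0%. The developmental genes Zfp703 and Zfp503 had low bodies in both libraries, at 10.2% and 11.1% and at 22.2% and 20.4%.

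Clustered and single Zfp genes differed in sequence. Of the clustered genes 24 (11.2%) had a CpG-rich TSS window (observed over expected CpG of at least 0.6 and GC of at least 50%), against 55 (38.7%) of the single ones. A KRAB-like core, a short letter pattern of the KRAB A box in the encoded protein, was found in 129 clustered (60%) and 35 single genes (24.6%). A gene without a match can still encode a KRAB domain, and how many the pattern missed was not tested. The median number of fingers was 12 in clustered and 8 in single genes. Clustered genes held 96.5% of their fingers in the last exon and single genes 67.8%. The last exon was long in both, with a median of 2558 and 2482 bp, against 1168 bp for genes outside the family.

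In WT the start sites of clustered genes were more methylated, with a median of 25.7% against 14.5% for single genes, while bodies (74.7% and 75.7%) and last exons (86.8% and 84.6%) were closer. In TCKO the clustered genes had the smaller median change over the body and in the last exon. The median body difference was 2.30 points for clustered and 5.24 for single genes, with 11 of 215 and 20 of 142 called higher. The median last exon difference was 1.19 and 4.33 points, with 15 of 209 and 22 of 134 called higher. On shared CpGs these medians were 2.77 and 4.83 for the body and 1.32 and 4.03 for the last exon. With a cluster distance of 200 kb the gap between single and clustered genes shrank from 2.94 to 1.22 points over the body and from 3.14 to 1.52 in the last exon. Single genes also had the larger last exon median among genes with a CpG-poor TSS window, by 1.67 points, and among those with a CpG-rich one (6.18 against 2.47). Genes with no other Zfp gene within 500 kb had a median of 5.16 points in the last exon, close to the 4.88 of all genes.

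At the TSS no stable order was seen. The medians were 3.33 points for clustered and 3.99 for single genes on all calls, and 3.64 and 2.98 on shared CpGs. Of the clustered windows 33 of 213 were called higher and of the single ones 30 of 141. Genes are not replicates and neighbours in a cluster share sequence, so these medians and counts describe the 2 libraries and carry no test.

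Members were also compared in classes of WT level on the plus strand, with the strands kept apart so that the class and the difference came from different cytosines. Among genes whose plus strand stood at 80% to 90% in WT, the minus strand of the last exon rose by a median of 2.29 points in 77 clustered genes, 4.38 in 59 single genes and 4.53 in 4474 genes outside the family. In the class from 70% to 80% the medians were 4.23, 8.09 and 6.22, and in the class from 90% to 100% 0.803, 2.32 and 2.70. Under 70% they were 1.03, 4.76 and 6.67. Clustered genes thus had the smallest median in each of the 4 classes. They also had the highest minus-strand WT median in each. In the class from 80% to 90% it was 87.6%, against 84.6% in single genes and 83.4% outside the family. Levels were therefore not alike on the strand where the difference was measured.

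The change also went with the KRAB-like core, that is, with a match to the pattern. Genes counted as without the core can include KRAB genes that the pattern missed. Last exons of the 164 KRAB-like genes differed by a median of 0.936 points, with 7 called higher, and those of the 179 others by 3.59, with 30 called higher. Among genes with the core the median was 0.854 points for 129 clustered genes and 1.63 for 35 single ones, of which 1 was called higher (Zfp558). Without the core the medians were 1.79 for 80 clustered and 5.24 for 99 single genes, and 2.40 for the 65 clustered genes outside the chromosome 4 cluster described below. On shared CpGs the 4 values were 1.44 (single with the core), 0.862 (clustered with it), 2.17 (clustered without) and 5.54 (single without). Over the body the single KRAB-like genes differed by 1.35 points with 0 of 35 called higher, against 6.53 with 20 of 107 for single genes without the core. Over all genes the shares called higher were 15.2% for bodies and 16.3% for last exons.

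**Figure D3:**
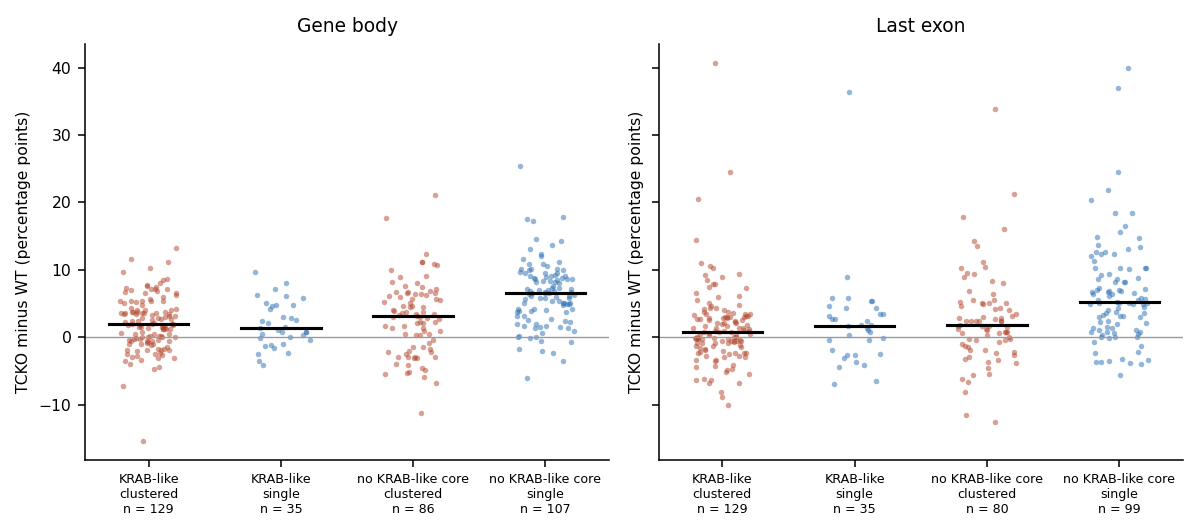
TCKO minus WT (percentage points) of each Zfp gene, split by a match to the KRAB-like pattern and by position (clustered or single), for the gene body and the last exon. Points are genes and bars are medians. In the last exon the single genes without the core have a median of 5.24 points, near that of all genes, and the other 3 groups lie lower, between 0.854 and 1.79.

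The number of fingers went the same way. Median last exon differences were 5.03 points for genes with 0 to 4 fingers, 3.22 for 5 to 9, 1.32 for 10 to 14 and 0.823 for 15 or more. The WT medians rose in the same order, at 79.8%, 85.8%, 87.0% and 88.7%, so level, finger number and KRAB-like core moved together and their parts cannot be told apart by these medians. On shared CpGs the differences were 5.50, 3.41, 0.778 and 1.42, so the last step down was not kept.

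Within the last exon, the finger codons of all members stood at 84.9% in WT and 87.0% in TCKO (2.12 points, 95% Newcombe interval 1.57 to 2.67 for counting error). The other codons went from 82.6% to 84.2% (1.57 points, 1.03 to 2.11). The intervals overlap, and finger codons held about as many CpGs, 2.14 per 100 bases against 2.17. The untranslated part set single and clustered genes apart. It rose by 5.85 points in single genes, from 80.6% to 86.4%, and by 1.98 in clustered ones, while the coding part rose by 1.80 and 1.82. In genes outside the family the untranslated part rose by 6.53 points and the coding part by 3.73. In the untranslated part the single genes were thus near other genes and the clustered ones below them. In pooled calls the distance between single and clustered genes thus lay in the untranslated part. Medians over genes differed in both parts, at 4.35 and 1.48 points in the untranslated part and 2.39 and 1.28 in the coding part.

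Around the TSS the difference was larger away from the start site, in the family as in other genes. Within 500 bp of the TSS the pooled level of all members went from 15.1% to 18% (2.92 points), and from 500 bp to 1 kb it went from 37.4% to 43.3% (5.92 points). In genes outside the family the same parts rose by 3.15 and 5.83 points. In single genes the outer part rose by 8.24 points and in clustered genes by 4.22, while the inner part rose by 2.92 and 2.87. In 100 bp windows, single genes and genes outside the family were higher in TCKO in 60 of 60 windows and clustered genes in 55 of 60. The largest differences lay downstream, at 1100 to 1200 bp for single genes (38.0% to 52.1%) and at 1200 to 1300 bp for clustered genes (62.2% to 72.2%). The floor lay next to the TSS in both, at 6.28% from -100 to 0 bp for single genes and at 7.0% from 200 to 300 bp for clustered genes in WT.

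Around the start of the last exon the level was already high. Single genes were higher in TCKO in 30 of 30 windows of 200 bp and clustered genes in 28 of 30. Both differed most in the intron before it, from 1600 to 1400 bp upstream, at 69.7% and 79.9% for single and 73.6% and 78.6% for clustered genes. The smallest difference of single genes lay downstream of the exon start, at 1200 to 1400 bp (1.09 points). In clustered genes the windows before and after the exon start overlapped. They differed by 0.261 points from 1400 to 1200 bp upstream and by 3.37 points from 600 to 800 bp downstream.

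**Figure D4:**
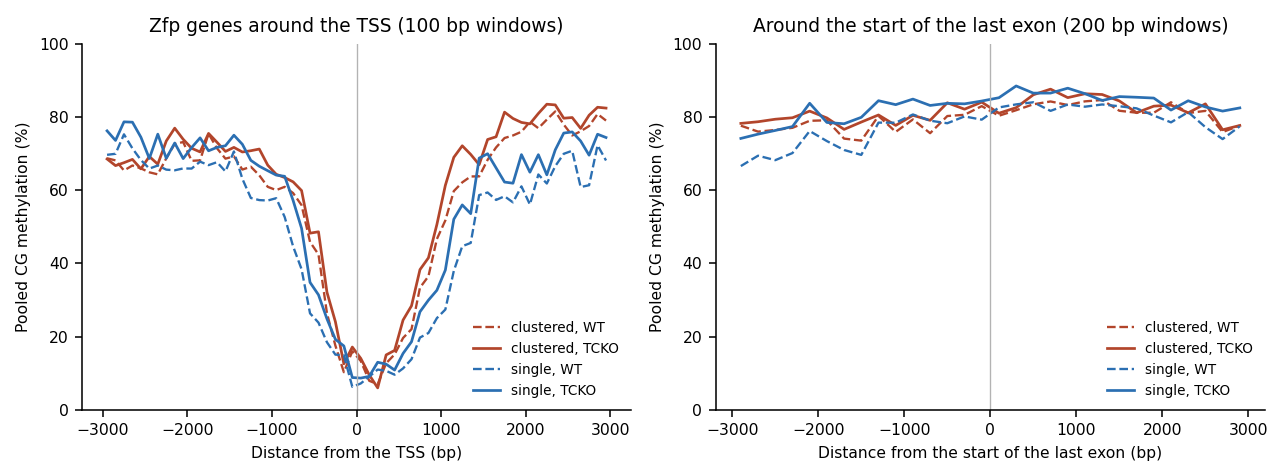
Pooled CG methylation (%) of clustered and single Zfp genes in WT (dashed) and TCKO (solid) by distance (bp) from the TSS in 100 bp windows and from the start of the last exon in 200 bp windows. Levels fall to 6.28% in single genes and 7.0% in clustered genes near the TSS in WT, and the libraries part most about 1.1 to 1.3 kb downstream of it.

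The 32 clusters did not change alike. Pooled last exons were higher in TCKO in 24 clusters, with the interval above 0 in 12, and lower in 8, with the interval below 0 in 2. The differences ran from -6.33 to 8.96 points, with a median of 1.67. At the TSS 29 clusters were above 0, with the interval above 0 in 23 and below 0 in 0 clusters.

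The largest last exon rise was in the cluster of Zfp709, Zfp882, Zfp617 and Zfp961 (chr8:71882019-71993792), from 80.8% to 89.7%. It came from Zfp961, since the other 3 genes together went from 89.4% to 90.6% (1.2 points, interval -0.952 to 3.32). In the cluster of Zfp251, Zfp7 and Zfp647 (chr15:76851609-76925448) the rise of 7.63 points fell to 2.16 (interval -1.0 to 5.13) without Zfp251. The 12 genes from Zfp180 to Zfp575 (chr7:24081924-24587641), none of which matched the KRAB-like pattern, were higher in TCKO in 11 of 12 last exons, of which 3 were called. Pooled, the last exons went from 77.0% to 83.9% (6.84 points, interval 4.95 to 8.72), and by 5.95 points without Zfp114, the member with the largest rise there. The sequence between these genes rose by 7.75 points, over 15878 calls in WT and 16819 in TCKO, although the TCKO library held fewer calls in total. The part of this uneven coverage in the values was not tested. The pooled last exons of the 19 genes of chr17:21008903-22456689 were higher by 4.1 points, with 16 of 19 above 0 and 3 called. Those of the 15 genes of chr7:29768552-30169750 were higher by 3.28 points, with 10 of 15 above 0 and 2 called, and Zfp146 differed there by 0.125 points.

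The interval of the pooled last exon lay below 0 in 2 clusters. The 19 genes of chr13:67038596-67827002, with Zfp595, stood at 87.3% in WT and 84.8% in TCKO (-2.47 points, interval -3.76 to -1.2), with 5 of 19 above 0, and without Zfp595 at -2.06 points. Their bodies differed by -1.96 points and the sequence between them by -1.65, while their TSS windows differed by -0.521 with an interval that spans 0 (-2.50 to 1.46). The sequence between them had 38665 calls in WT and 27796 in TCKO, where all autosomes had 250877554 and 214609823. Their last exons had 8.14 WT calls per CG cytosine. The part of uneven coverage or shared reads in these values was not tested. Zfp968, Zfp965, Zfp969 and Zfp966 (chr2:175372436-175931100) differed by -6.33 points (interval -11.9 to -0.807) over 343 and 334 calls, with -6.42 on shared CpGs.

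The cluster of 18 genes at chr4:145510759-147848366, which includes Zfp534, Zfp600 and Zfp933, stood apart in WT. Its TSS windows were at 55% and its last exons at 68.3%, against family medians of 21.6% and 85.5%. The KRAB-like pattern matched only 2 of the genes. The libraries differed there by -0.640 points at the TSS, -0.360 over the body, 0.161 in the last exon and -0.461 between the genes. Its last exons had 20.8 WT calls per CG cytosine, against 4.37 for the median gene. Near-identical copies can share reads, and the part this has in the values was not tested, so they are given as uncertain.

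**Figure D5:**
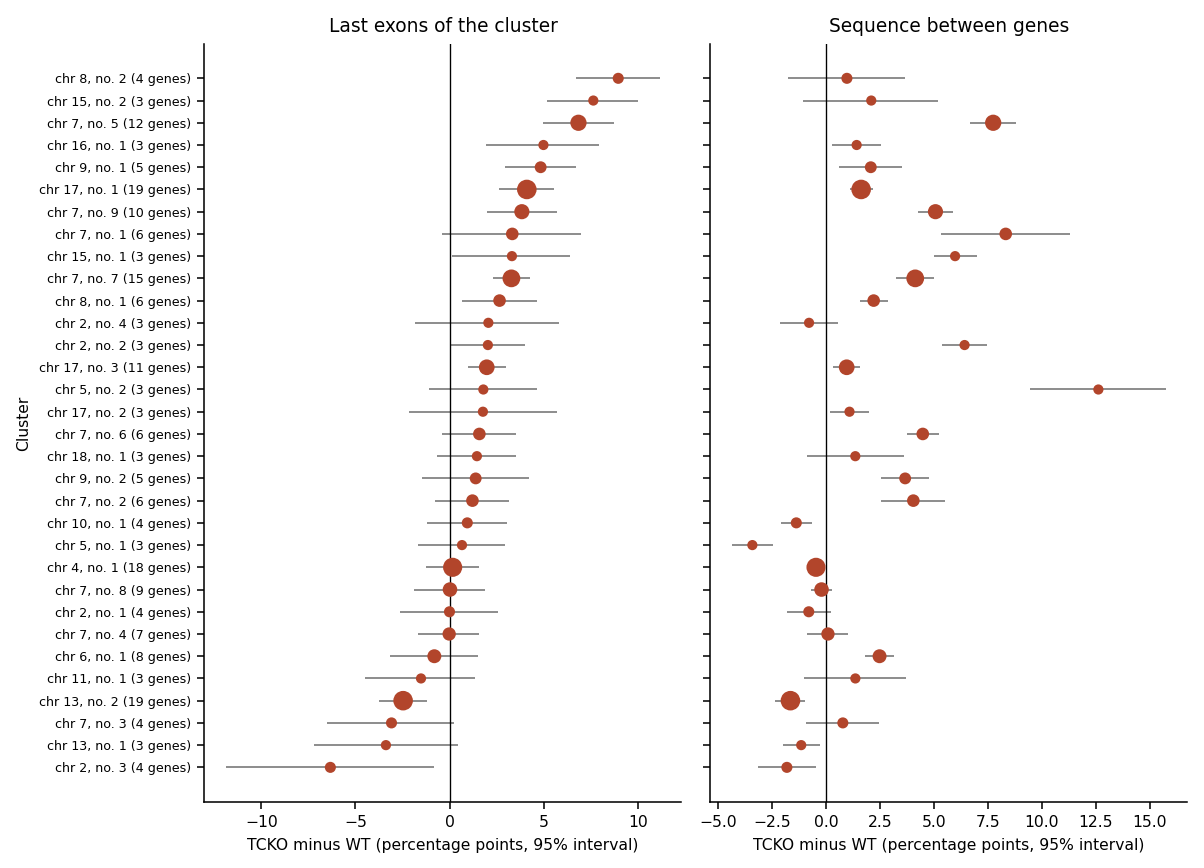
TCKO minus WT (percentage points, 95% Newcombe intervals for counting error) of each of the 32 Zfp clusters at the last exons and in the sequence between genes, sorted by the last exon; point size follows the number of genes. Last exon values run from -6.33 to 8.96 points, and the 18-gene chromosome 4 cluster sits at 0.161 points in its last exons and -0.461 between its genes.

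The proteins that KRAB zinc fingers recruit, and those that maintain CG methylation, were described by 14 autosomal genes. Trim28, the corepressor, had 72.2% at its TSS in WT and 81.6% in TCKO, with no call. At the TSS Dnmt3b was called higher (19.3% to 46.4%) and Dnmt3a lower (62.5% to 35.9%). Over the body 3 of 14 were called higher, namely Daxx (46.2% to 71.1%), Cbx3 and Cbx5, the last by 11.3 points. In the last exon 3 of 11 were called higher, namely Setdb1, Cbx1 and Cbx5, by 22.5, 36.2 and 12.3 points. Of all genes 16.8% of TSS windows, 15.2% of bodies and 16.3% of last exons were called higher, and 1.66% of TSS windows lower. The TSS windows of Trim28, Dnmt1 and Dnmt3a stood at 72.2%, 80.7% and 62.5% in WT. Whether windows at the 5′ end of the gene hold the start sites in use was not tested. The 2 Dnmt3 calls were lost on the minus strand alone.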

How the data were processed

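WGBS was analysed for 1 WT and 1 TCKO library, grouped by their labels. The authors aligned reads to GRCm38 with BSMAP 2.74, allowing 2 mismatches, and kept unique reads, and CASAVA is also named in the submitters' processing notes. Duplicate removal is not given in the sources used here. The deposited tables hold, for each CG cytosine and strand, a count of methylated calls and a count of all calls, with no normalization, and 0 columns were left unmatched. Members and gene lists were chosen with earlier results of these data known.

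Gene models came from GENCODE M21 and positions and sequences from GRCm38. A level is methylated calls over all calls, pooled over a region with at least 30 calls (TSS window and last exon) or 100 calls (body) in both libraries. The last exon is that of the chosen principal coding transcript. A cluster is a run of neighbouring start sites, some 500 kb of which hold at least 3. Fingers were counted in the translated coding sequence as cysteine pairs and histidine pairs at C2H2 spacing, the KRAB-like core by a short pattern. Each gene was compared by a Fisher exact test, 2-sided, and p-values were adjusted (Benjamini-Hochberg) over every autosomal protein-coding gene measured. Only counting error is covered by these p-values and by the Wilson and Newcombe 95% intervals, since calls on 1 read, or on duplicates, are not independent. No test was made across genes, which are not replicates.

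The genes named were the 5 with the largest called rise and the 5 with the largest called fall in each region, the list with known roles, the extreme TSS windows of each cluster and the 2 widest gaps between TSS and last exon in WT. Not all cluster genes are described. In simulated calls at the depth of these libraries, 67 of 100 genes changed by 15 points were called at the TSS, 94 over the body and 47 in the last exon, and 100, 100 and 93 of 100 changed by 30 points. The changed genes were drawn from all genes, and starting levels were capped below those of most Zfp last exons. Non-CG calls and the study's other assays were not analysed here. Alternatives changed the window, transcript, strand, deepest cytosines, averaging, cluster distance and threshold, and shared CpGs, the chromosome 4 cluster and the KRAB splits were added after the data were seen. Computations used Python 3.11.15, numpy 2.4.6, pandas 2.3.3, scipy 1.17.1, numba 0.67.0 and matplotlib 3.10.9.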

Additional observations from a re-analysis of the deposited data

How the results depend on the processing

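No paired analysis was possible because each genotype has 1 library, and for the same reason no library could be left out. Depth limits single genes, since a 15-point change in a last exon was often missed in the simulation. Its levels were capped below those of most Zfp last exons, so it does not give the share missed in the family. Of the summary values recomputed, 149 stayed close to their main value, 31 moved and 4 turned sign, and the cause was not tested. At the TSS, a minimum of 20 points left 7 members higher and 2 lower, a window of 500 bp gave a median difference of 0.859 points with 24 higher and 1 lower, and a window of 2 kb a median of 5.21. Over the body, 20 points left 2 higher and 0 lower, and no minimum difference gave 189 and 26. The lower count there was 5 on the plus strand, 5 on the minus strand, 1 without chromosome 7 and 0 without the first kb and last exon. In the last exon, 20 points left 11 higher and 0 lower, and no minimum gave 64 and 5. The plus strand gave 2 lower, the minus strand 21 higher and 3 lower, the coding part 15 higher and 0 lower, and the untranslated part 0 lower.

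The median difference of single minus clustered genes at the TSS was 0.664 points. It turned to -0.817 with a cluster distance of 200 kb, -0.498 without the chromosome 4 cluster, -0.665 on CpGs read in both libraries and -1.07 as the mean of cytosines with at least 4 calls. At 200 kb it was 1.22 over the body (main value 2.94) and 1.52 in the last exon (3.14), and 1.67 in last exons of CpG-poor genes. The distance between genes without and with the KRAB-like core in the last exon, 2.65 points, was 0.938 among clustered genes. Of the partner genes, 0 were called higher and 0 lower at the TSS on the minus strand, and 1 higher in the last exon on the plus strand. Of the named genes, Zfp217 turned to -8.57 points at the chosen transcript, Zfp414 to 13.6 and Zfp953 to 8.37 at the TSS with the mean of cytosines, to 7.87 and 2.92 on shared CpGs, and Zfp414 to 7.91 over the body on shared CpGs.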

Other observations

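Genes outside the family were described where they share its fingers or its neighbourhood. Of the genes with other names, 203 encoded 5 or more C2H2 fingers, and their last exons differed between TCKO and WT by a median of 2.58 points over the 193 measured. The 37 of them inside the spans of Zfp clusters had a median of 0.602 points and 0 called higher, while 84 genes with fewer fingers inside the same spans had a median of 2.59. Zscan and Zkscan genes, which join a SCAN domain to fingers, had a median of 1.92 points over 30 last exons. Zbtb genes, which join a BTB domain to fingers, had 5.40 over 36, and the Klf transcription factors, with few fingers, had 9.87 over 15, with 6 called higher. These are medians over genes in 2 libraries, with no test of the differences between families.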
